A study of Mus musculus with 4 samples.

Results

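The interferon response genes described here are 33 genes of the mouse, taken by name: transcription factors and sensors of the pathway, antiviral effectors, chemokines, guanylate-binding proteins and genes of antigen presentation. A gene was found on the array through the RefSeq accession of its probes. Probes matched 31 of the 33 genes, and all 31 were among the 31077 genes tested, out of 32665 genes or accessions on the array. No probe matched Mx1 or Mx2, which encode antiviral GTPases, so they have no value here. The study compared livers of male C57Bl/6 mice aged 3 months, all with a mutant Wrn protein, the RecQ helicase lost in Werner syndrome. One group of 4 mice had drunk water with 0.4% vitamin C from weaning on, and the 4 control mice carried the same mutation and had no treatment. The labels name no allele beyond the mutant protein, and no mice with a normal Wrn protein are part of the comparison. RNA of 1 treated liver (dye Cy3) and 1 untreated liver (dye Cy5) was hybridised to each of 4 arrays, called replicates 1 to 4, which the labels describe as separate biological replicates.

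Interferons are cytokines that cells release when nucleic acid sensors detect a virus. Type I interferons act through the kinases Jak1 and Tyk2 and a complex that holds Stat2 and Irf9, which binds the interferon-stimulated response element (ISRE), while interferon gamma acts mainly through the gamma-activated site (GAS). In liver, hepatocytes, Kupffer cells and endothelial cells all respond, and the induced genes block viral replication, load peptides onto MHC molecules and attract T cells.

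Every value below is a log2 ratio of vitamin C over untreated unless it is called a level, and errors are SDs over the 4 arrays. As 0 arrays had the dyes swapped, a bias of a probe towards one dye cannot be told apart from a treatment difference. Median spot intensities were 380 to 530 in Cy3 and 813 to 962 in Cy5, and the negative controls read 62 to 67 and 66 to 80. Within an array, the spots of 245 probes printed more than once differed by an SD of 0.073 to 0.083. Single-array ratios smaller than this are within the spot-to-spot error. Errors that a whole array or a labelled sample carries are not part of this SD. Replicate 2 stood apart over all genes: its ratios correlated with those of the other arrays at r of -0.18 to 0.020, whereas replicates 1, 3 and 4 correlated with each other at r of 0.601 to 0.785 (across genes, which are not independent). Of 12 listed hepatocyte markers, 10 were measured, each well above background in both channels. All 31 interferon response genes were well above background in both channels on all 4 arrays, with mean log2 intensities of 8.0 to 17.1.

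The T-cell chemokine genes Cxcl9 and Cxcl10 had the highest ratios among the interferon response genes, at 2.33-fold and 1.64-fold in treated over untreated livers, followed by Gbp3 at 1.43-fold and Irf1 (log2 ratio 0.37). The 15 antiviral effectors measured had mean log2 ratios from -0.28 to 0.28. Among them, Isg15 was at 1.03-fold, Ifit3 at 1.02-fold and Oas2 at 1.00-fold. Ifit1 (log2 ratio 0.26) and Ifit2 (log2 ratio 0.28) were higher. Oasl1 had the lowest mean, at 0.826-fold, and B2m, which encodes the light chain of MHC class I, was at 0.873-fold. None of these genes passed the test over all genes: 0 of 31 had an adjusted p under 0.05 (limma with Benjamini-Hochberg adjustment), the smallest being 0.144, and the same was true of all genes tested (0 of 31077, 0%). At an unadjusted p under 0.05 there were 10 of the 31 (32.3%), beside 27.7% of all genes. Of these 10, 8 were higher, beside 11.1% of all genes, and 2 were lower, beside 16.6%. Without the loess normalisation there were 12 (47.1% of all genes), 4 of them higher (19.8% of all genes) and 8 lower (27.3%). With 1 array left out there were 7 of 31 without replicate 1 (12.6% of all genes), 11 without replicate 2 (43.6%), 6 without replicate 3 (10%) and 12 without replicate 4 (13.2%). By adjusted p, 3 members passed without replicate 2 (28.2% of all genes) and 5 without loess (31%), while a fit of the channels as separate samples called 3.16% of all genes and 0 members. The median of the 31 means was 0.083 (array medians 0.060, 0.11, 0.010 and 0.11), against -0.015 over all genes, and it was -0.026 without loess. The ratio was above 0 on all 4 arrays for 7 members (14.8% of all genes) and below 0 on all 4 for 4 members (16.1% of all genes). A mean at least 1.5-fold higher was found for 2 members, Cxcl9 and Cxcl10, beside 0.222% of all genes.

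**Figure D1:**
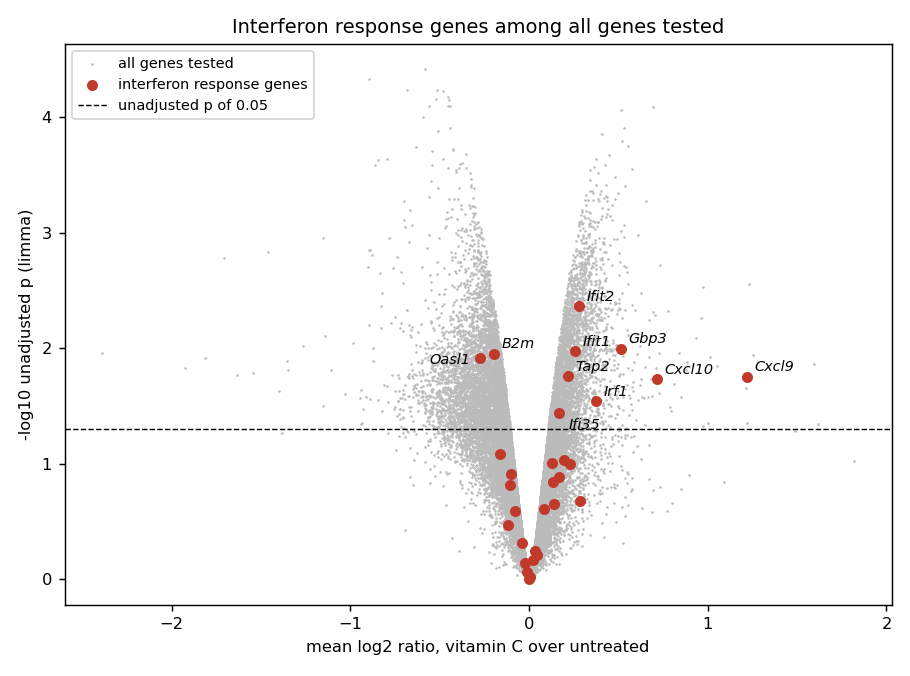
Mean log2 ratio of vitamin C over untreated (x axis) against the -log10 of limma's unadjusted p (y axis) for all 31077 genes tested (grey) and the 31 interferon response genes (red); the dashed line marks a p of 0.05. The 10 labelled members lie above the line, and Cxcl9 and Cxcl10 lie far to the right of the other members at 1.22 and 0.72.

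**Figure D2:**
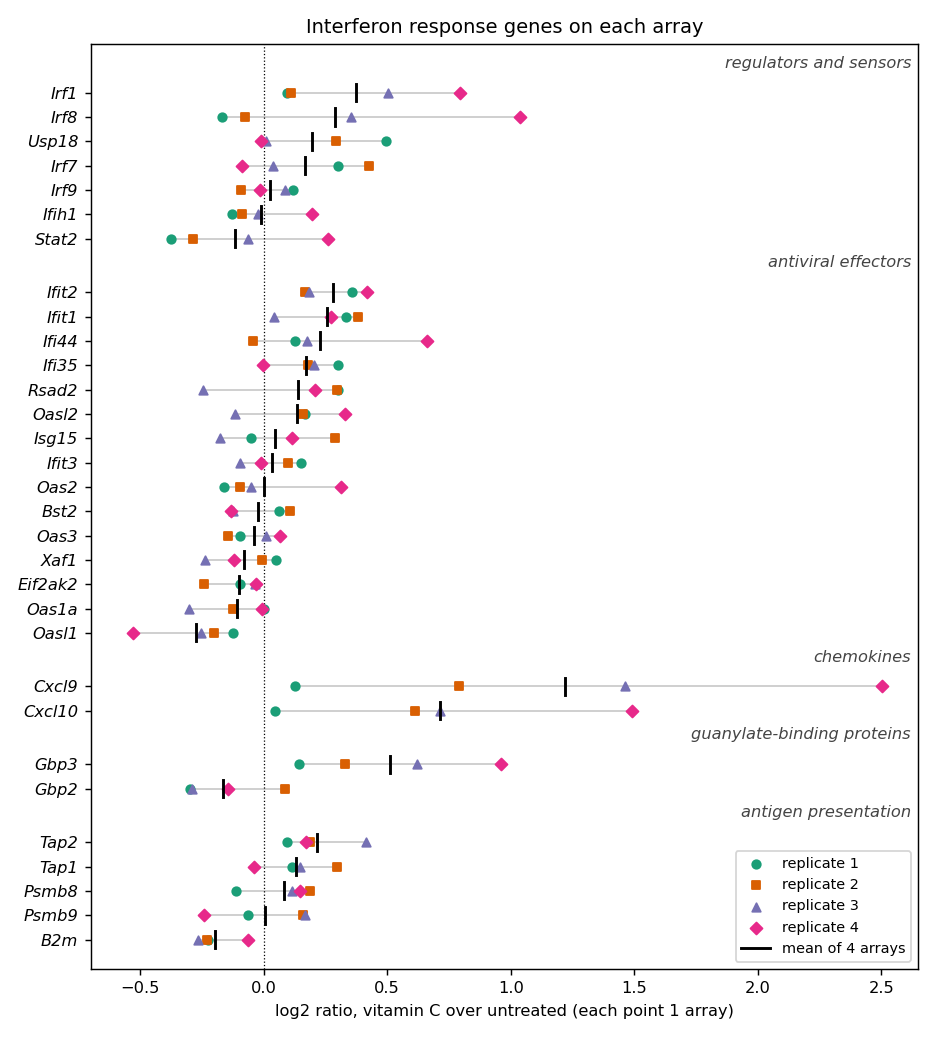
Log2 ratios of the 31 members on each array (1 point per array, with the mean of 4 arrays as a bar), grouped by role. The spread over arrays is widest for Cxcl9, from 0.13 to 2.50, while most antiviral effectors lie within 0.5 of 0 on every array.

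The chemokines Cxcl9 and Cxcl10 are ligands of the receptor Cxcr3 and draw activated T cells and NK cells into tissue. Cxcl9 depends largely on interferon gamma, whereas Cxcl10 answers to all interferons. Cxcl9 ratios were 0.13, 0.79, 1.46 and 2.50 on replicates 1 to 4. All 4 lay above 0, the smallest on replicate 1, where the repeat-spot SD was 0.073. The mean was 1.22 ± 1.01 (SD, n = 4), with a 95% interval of 0.30 to 2.14 and an unadjusted p of 0.0176 (adjusted p = 0.146, limma). This was the 7th highest mean of the 31077 genes and the 56th highest SD. Cxcl10 ratios were 0.045, 0.61, 0.71 and 1.49, in the same order of arrays. Their mean was 0.72 ± 0.59, with an interval of 0.17 to 1.26 and an unadjusted p of 0.0185 (adjusted p = 0.146, limma). Replicate 1 thus showed the smallest difference in both chemokines, and replicate 4 the widest. Without replicate 4 the means were 0.79 (Cxcl9) and 0.46 (Cxcl10), with unadjusted p of 0.0235 and 0.0233. Without replicate 3 the unadjusted p was 0.0583 and 0.0516, and without replicate 2, the array that stood apart over all genes, the means were 1.36 and 0.75.

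The spread of the chemokines was also followed in each liver. Levels are log2 intensities brought to a common scale across arrays, and they are compared within a gene only. In the untreated livers Cxcl9 stood at 11.46, 10.18, 10.997 and 10.28 on replicates 1 to 4, and in the treated livers at 11.59, 10.98, 12.46 and 12.79. The groups overlapped: 3 treated livers lay above every untreated one, but the treated liver of replicate 2 lay below the untreated livers of replicates 1 and 3. Cxcl10 stood at 10.51, 9.52, 10.39 and 9.68 in untreated livers and at 10.55, 10.14, 11.10 and 11.17 in treated ones, again with overlap. The high ratio of replicate 4 thus combined a treated liver that was the highest of all 8 with an untreated liver near the lowest, for both genes. The SD over untreated livers was 0.61 for Cxcl9 and 0.50 for Cxcl10, and over treated livers 0.82 and 0.49. The untreated levels thus also differed among themselves, for Cxcl10 about as much as the treated ones. Each liver of a group was on its own array, so differences between mice and between arrays cannot be told apart in these levels. In whole liver, more cells that make a transcript and more transcript per cell cannot be told apart.

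**Figure D3:**
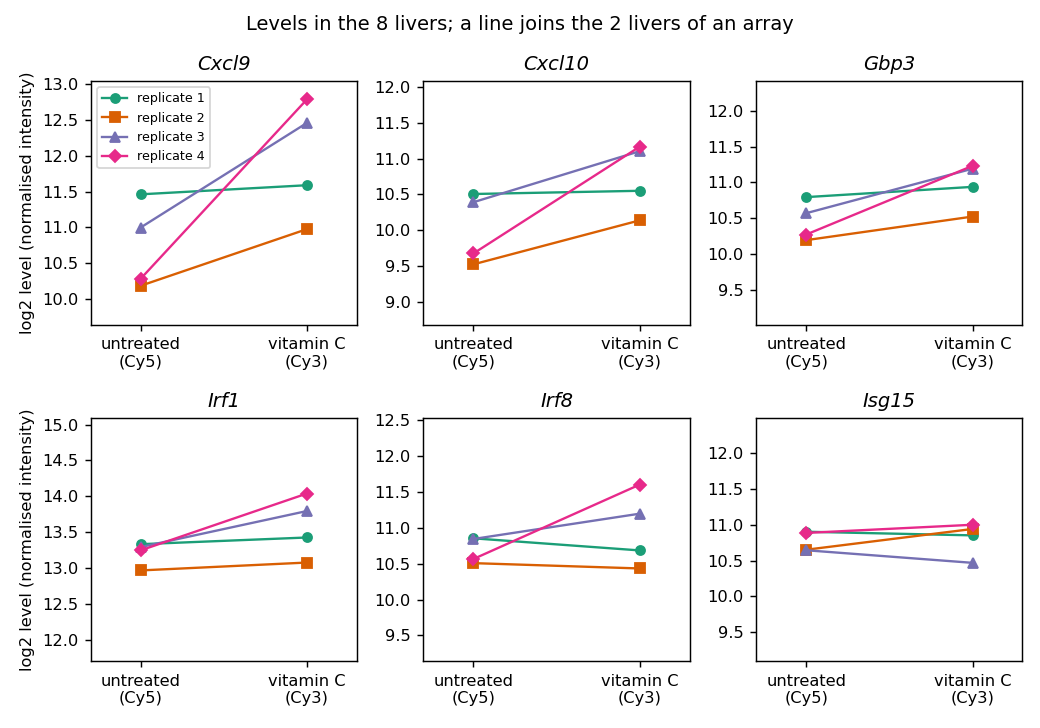
Log2 levels of 6 genes in the 8 livers, untreated (left, Cy5) and vitamin C (right, Cy3), with a line for the pair on each array; all panels span the same range. The lines of Cxcl9 and Cxcl10 are steepest for replicate 4 and nearly flat for replicate 1, whereas those of Isg15 stay close to flat.

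To show which interferon elements stand in front of the genes that the comparison turns on, their sequence before the start of transcription was taken from RefSeq (mouse assembly GRCm38.p6), with matches to the ISRE core (TTTC, any 2 bases, TTTC) on either strand and to the GAS core TTCNNNGAA (which reads alike on both strands) in capitals. The stretches lie at chr5:92328080-92328179 (minus strand) for Cxcl9, chr5:92348890-92349139 (minus strand) for Cxcl10, chr3:142559924-142560043 (plus strand) for Gbp3 and chr11:53769854-53770013 (plus strand) for Irf1. For contrast, Ifit1 at chr19:34640769-34640888 (plus strand) and Isg15 at chr4:156200819-156200958 (minus strand) are classical type I targets, and B2m is at chr2:122147487-122147686 (plus strand). Each is written 5′ to 3′ on the strand of its gene and ends at the last base before the start.
Cxcl9: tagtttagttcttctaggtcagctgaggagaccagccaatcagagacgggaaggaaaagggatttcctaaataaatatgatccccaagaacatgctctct
Cxcl10: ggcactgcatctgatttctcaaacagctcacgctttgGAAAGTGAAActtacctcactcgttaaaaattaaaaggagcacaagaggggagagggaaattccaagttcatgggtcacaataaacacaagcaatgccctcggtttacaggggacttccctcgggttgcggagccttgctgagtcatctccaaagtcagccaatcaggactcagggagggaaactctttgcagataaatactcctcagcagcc
Gbp3: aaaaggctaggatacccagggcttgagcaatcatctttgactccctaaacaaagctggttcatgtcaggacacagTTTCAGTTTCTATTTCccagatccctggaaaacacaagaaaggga
Irf1: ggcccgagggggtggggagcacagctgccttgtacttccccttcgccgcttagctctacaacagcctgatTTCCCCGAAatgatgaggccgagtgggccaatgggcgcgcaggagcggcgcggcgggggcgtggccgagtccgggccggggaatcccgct
Ifit1: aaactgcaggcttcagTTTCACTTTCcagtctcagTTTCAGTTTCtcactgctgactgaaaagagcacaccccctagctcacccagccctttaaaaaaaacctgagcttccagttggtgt
Isg15: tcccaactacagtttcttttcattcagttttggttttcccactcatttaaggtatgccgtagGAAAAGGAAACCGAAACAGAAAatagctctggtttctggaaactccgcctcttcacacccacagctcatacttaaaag
B2m: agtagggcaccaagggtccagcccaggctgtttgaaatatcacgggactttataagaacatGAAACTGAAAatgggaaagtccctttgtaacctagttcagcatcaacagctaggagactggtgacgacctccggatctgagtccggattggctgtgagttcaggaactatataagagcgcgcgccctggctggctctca
Cxcl10 holds 1 ISRE core, 204 to 213 bases before the start, Gbp3 holds 2 that overlap each other, and Ifit1 holds 2 apart from each other. Isg15 holds 3 that overlap in a row, 57 to 78 bases before the start. Irf1 holds a GAS core 82 to 90 bases before the start, and B2m an ISRE core 130 to 139 bases before it. Neither set of letters is in the Cxcl9 window, of which the last 100 bases before the start are shown, which says nothing about elements outside it or of other spelling. Irf1 and Gbp3 each have a further start site in the table, whose windows hold neither core.

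Of the 33 members, 28 had at least 1 promoter window in the RefSeq table (250 bases before to 50 after the start; 33 windows in all). The ISRE core was found in 14 of the 33 windows (42.4%), beside 3.44% of 32851 windows of all genes, and the GAS core in 8 (24.2%), beside 8.3%. Bst2, Eif2ak2 and Oas1a held both, and in Bst2 the GAS core overlaps an ISRE core. The 14 members with the core had a median of -0.017, from -0.20 (B2m) to 0.72 (Cxcl10), and the 14 with a window but no core had a median of 0.15, from -0.28 (Oasl1) to 1.22 (Cxcl9). The 8 members with the GAS core had a median of 0.13. These medians are descriptions of the members only.

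Among regulators and sensors, 7 members were measured, and 5 had means above 0, as had 14313 of all 31077 genes. Of the 7, 1 had an unadjusted p under 0.05 (14.3%, beside 27.7% of all genes). Irf1, a transcription factor of interferon gamma responses and of MHC class I expression, had ratios of 0.093, 0.11, 0.50 and 0.79. They were all above 0, small on replicates 1 and 2, and gave a mean of 0.37 ± 0.34 (unadjusted p = 0.0288, adjusted p = 0.156, limma). A dimmer probe for Irf1 had a mean of 0.27, with 0.18 to 0.35 on the 4 arrays. In levels Irf1 was tightly grouped in untreated livers, at 12.96 to 13.33, and wider in treated livers, at 13.07 to 14.04, and the groups overlapped. The unadjusted p was above 0.05 without replicate 3 (0.0956), without replicate 4 (0.0681), with Agilent's processed signals (0.148) and without loess (0.0869). Irf8, a factor of macrophage and dendritic cell development, had ratios of -0.17, -0.074, 0.35 and 1.04. It was below 0 on replicates 1 and 2 and highest on replicate 4, for a mean of 0.29 ± 0.55 (unadjusted p = 0.211, limma). Without replicate 4 its mean was 0.037, and a dimmer Irf8 probe ran from -0.067 to 0.11, without the high value on replicate 4.

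The other regulators of the type I pathway differed among themselves in their order of arrays. Irf7, which amplifies type I interferon production, had 0.30, 0.43, 0.037 and -0.089, for a mean of 0.17 ± 0.24. Usp18, a protease that removes Isg15 from proteins and dampens the type I receptor, had 0.49, 0.29, 0.0093 and -0.011, for a mean of 0.20 ± 0.24. Both were thus highest on replicates 1 and 2 and near 0 on replicates 3 and 4, and without replicate 4 Irf7 stood at 0.25 (unadjusted p = 0.0396, adjusted p = 0.377, limma). Stat2 had -0.38, -0.29, -0.065 and 0.26, for a mean of -0.12 ± 0.28, lowest on replicate 1 and highest on replicate 4 as Irf1 and Irf8 were. Without replicate 4 Stat2 stood at -0.24 (unadjusted p = 0.031, adjusted p = 0.377, limma), and without loess at -0.26 (unadjusted p = 0.0458, adjusted p = 0.0996, limma). Irf9, the DNA-binding partner of Stat2, was at 0.024 ± 0.097. Ifih1, which encodes the RNA sensor MDA5, was at -0.011 ± 0.14, with replicate 1 lowest and replicate 4 highest. A dimmer Ifih1 probe had another order, with 0.25, -0.038, -0.38 and -0.19, highest on replicate 1. The mean of Irf9 was below 0 without loess (-0.12), with Agilent's processed signals (-0.025) and without replicate 1 (-0.0076), and the unadjusted p of these 5 genes ran from 0.0929 (Usp18) to 0.873 (Ifih1).

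Of the 15 antiviral effectors measured, 8 had means above 0 and 7 below, with a median of 0.035, and the median was -0.081 without loess. An unadjusted p under 0.05 was found for 3 higher (Ifit1, Ifit2 and Ifi35) and 1 lower (Oasl1), or 26.7%, beside 27.7% of all genes. Ifit1, which binds viral RNA that lacks the host's cap, had ratios of 0.33, 0.38, 0.042 and 0.27. They lay above 0 on all 4 arrays, with replicate 3 within the repeat-spot error, and gave 0.26 ± 0.15 (unadjusted p = 0.0106, adjusted p = 0.144, limma). The mean was 0.11 without loess (unadjusted p = 0.249, adjusted p = 0.354, limma), and without replicate 1 the unadjusted p was 0.0507. Its relative Ifit2 had 0.36, 0.17, 0.18 and 0.42, for 0.28 ± 0.12 (unadjusted p = 0.00436, adjusted p = 0.144, limma), the smallest p of all members. This Ifit2 probe was the dimmest of the members in use, at a log2 intensity of 8.0, and a second Ifit2 probe, at 7.2, was below 0 on all 4 arrays, with a mean of -0.092. With the mean of both probes Ifit2 stood at 0.095 (unadjusted p = 0.0821, adjusted p = 0.226, limma). Ifit3, of the same family, was at 0.035 ± 0.11.

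Oasl1, an OAS-like protein known as a brake on Irf7 translation, was the lowest member, with -0.12, -0.20, -0.25 and -0.53. Replicate 4 was the lowest and all 4 were below 0, for a mean of -0.28 ± 0.18 (unadjusted p = 0.0122, adjusted p = 0.145, limma). Its unadjusted p stayed under 0.05 in each of 13 alternative settings, where its mean ran from -0.43 to -0.19. Oasl2, its paralogue, was at 0.13 ± 0.18. The oligoadenylate synthetases, which switch on RNase L, were at -0.11 ± 0.14 (Oas1a), -0.00015 ± 0.21 (Oas2) and -0.041 ± 0.097 (Oas3). Dimmer probes had means of 0.085 (Oas2) and 0.11 (Oas3), the latter above 0 on all 4 arrays. Oas1a is one of several near-identical Oas1 copies, so its signal may hold theirs.

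Ifi35, an interferon-induced leucine zipper protein, had 0.30, 0.18, 0.20 and -0.0026. It was above 0 on 3 arrays and at 0 on replicate 4, for 0.17 ± 0.13 (unadjusted p = 0.0363, adjusted p = 0.165, limma). That p was above 0.05 without replicate 1, 2 or 3 (0.148, 0.0654 and 0.116), with Agilent's processed signals (0.122) and without loess, where the mean was 0.016. Ifi44 had 0.13, -0.042, 0.17 and 0.66, highest on replicate 4, for a mean of 0.23 ± 0.30. Bst2, or tetherin, which holds budding virus at the cell surface, was the brightest effector, with 0.060, 0.11, -0.13 and -0.13. Its mean was -0.022 ± 0.12, or -0.21 without loess, and above 0 with Agilent's processed signals (0.078), without replicate 3 (0.012) and without replicate 4 (0.014). Isg15, a ubiquitin-like modifier, had -0.051, 0.29, -0.18 and 0.11, on both sides of 0, for 0.044 ± 0.20, and it was at -0.11 without loess, -0.0063 with Agilent's processed signals and -0.037 without replicate 2. Its levels, 10.64 to 10.90 in the untreated livers, lay within the range of the treated ones, the lowest of which was 10.47.

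Rsad2, or viperin, which makes a chain-terminating nucleotide, had 0.30, 0.30, -0.24 and 0.21, for 0.14 ± 0.26. Its probes disagreed: a second one of nearly equal intensity had -0.19, 0.26, -0.52 and -0.48, and another, dimmer one had a mean of -0.067. All 3 were lowest on replicate 3. Xaf1, which promotes cell death, was at -0.078 ± 0.13, and Eif2ak2, which encodes the RNA-activated kinase PKR, at -0.10 ± 0.10 with all 4 arrays below 0. Without loess the latter stood at -0.26 (adjusted p = 0.028, limma), in a setting where 31% of all genes passed.

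Guanylate-binding proteins are GTPases that attack the vacuoles of intracellular pathogens. Gbp3 had 0.14, 0.33, 0.62 and 0.96, all above 0 and again lowest on replicate 1 and highest on replicate 4. Its mean was 0.51 ± 0.36, with an interval of 0.18 to 0.85 (unadjusted p = 0.0101, adjusted p = 0.144, limma), the 130th highest of all genes. The Gbp3 level was 10.79, 10.19, 10.57 and 10.27 in untreated livers and 10.94, 10.52, 11.19 and 11.23 in treated ones, so the groups overlapped through the treated liver of replicate 2. Its unadjusted p stayed under 0.05 in each of the 13 alternative settings, at means of 0.36 to 0.64. Without replicate 2 the adjusted p was 0.0497, where 28.2% of all genes passed. Gbp2 went the other way, with -0.30, 0.084, -0.29 and -0.15. It was below 0 on the 3 arrays other than replicate 2, for -0.16 ± 0.18 (unadjusted p = 0.0819, adjusted p = 0.222, limma). Without replicate 2 it stood at -0.25 (adjusted p = 0.0288, limma). Gbp genes resemble each other, and the sequence of these probes is not given in the sources used here, so a probe may also pick up a relative.

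Among the genes of antigen presentation, which produce and load the peptides of MHC class I, 4 of 5 means were above 0, with a median of 0.083, and the median was -0.030 without loess and -0.060 with Agilent's processed signals. Tap2, a subunit of the peptide transporter, had 0.094, 0.19, 0.41 and 0.17. It was above 0 on all 4 arrays, for 0.22 ± 0.14 (unadjusted p = 0.0175, adjusted p = 0.146, limma), and the p was 0.0648 without replicate 3 and 0.321 without loess. Its partner Tap1 had 0.11, 0.30, 0.15 and -0.041, for 0.13 ± 0.14. The immunoproteasome subunits Psmb8 and Psmb9 were at 0.083 ± 0.13 and 0.0052 ± 0.20, and a second Psmb8 probe was at 0.026. Psmb8 was at -0.079 with Agilent's processed signals and -0.030 without loess.

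B2m had -0.23, -0.23, -0.26 and -0.064, all below 0, for -0.20 ± 0.090 (unadjusted p = 0.0112, adjusted p = 0.144, limma). Its levels were 17.09 to 17.27 in untreated and 16.83 to 17.07 in treated livers, and it was the only member whose groups did not overlap, as was true of 6.71% of all genes. The B2m probe in use was the brightest of the members, at a log2 intensity of 17.1, and the 153 genes at 17 or more had a median of -0.30, with 94.8% of their means below 0. A second B2m probe, at 15.8, had ratios of 0.014, 0.029, 0.10 and 0.24, the opposite direction on all 4 arrays. After subtraction of each array's running median along intensity, B2m stood at 0.0018 (unadjusted p = 0.975, adjusted p = 0.985, limma).

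**Figure D4:**
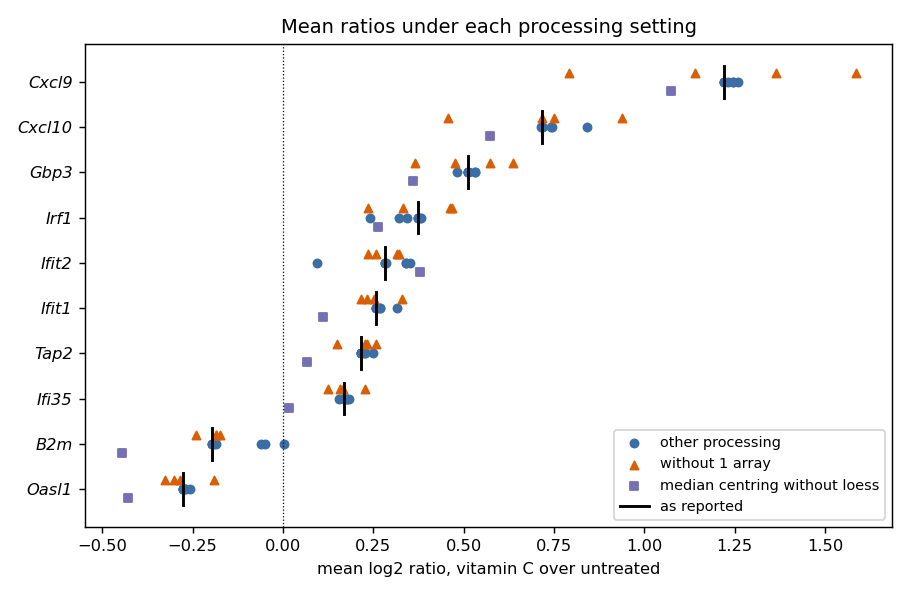
Mean log2 ratios of the 10 members with an unadjusted p under 0.05, as reported (bars) and under the alternative settings (squares, median centring without loess; triangles, 1 array left out; circles, other processing). Cxcl9, Cxcl10 and Gbp3 stay to the right of 0.3 in every setting, Oasl1 stays below 0, and B2m runs from -0.45 to 0.0018.

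The arrays resembled each other in a different way over the members than over all genes. Across the 31 members, which share arrays and normalisation and are not independent, replicates 3 and 4 correlated at r = 0.876 and replicates 1 and 2 at r = 0.58, while replicates 1 and 4 were at 0.1. Over all genes the corresponding values were 0.785, 0.02 and 0.601. Replicate 2, which ran at -0.147 and -0.178 against replicates 3 and 4 over all genes, ran at 0.631 and 0.561 against them over the members. Without Cxcl9 and Cxcl10 these became 0.314 and 0.115, and replicates 1 and 2 were at 0.701 without them. Replicates 3 and 4 were then at 0.672, below the 0.785 over all genes. The SD of the member ratios within an array was 0.20, 0.25, 0.36 and 0.59 on replicates 1 to 4, and over all genes 0.22, 0.17, 0.29 and 0.31. The ratio was highest on replicate 4, the array with the widest SD over all genes, for 14 of the 31 members. The share of all genes with their highest ratio there was not counted.

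**Figure D5:**
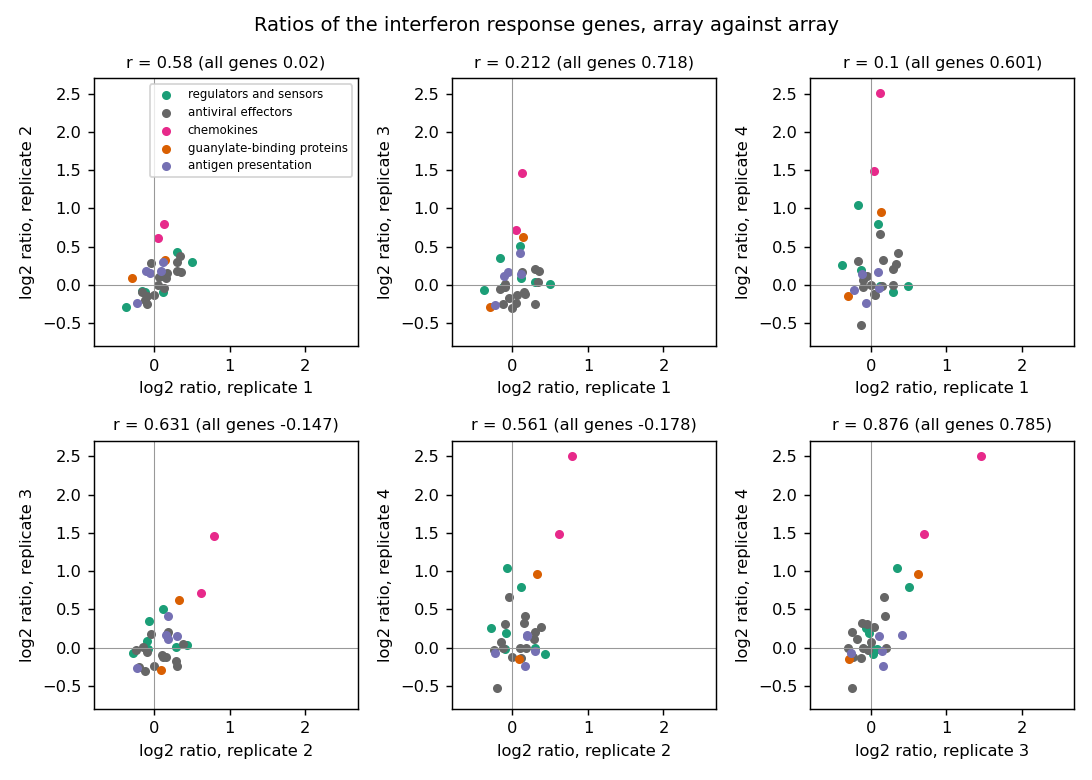
Log2 ratios of the 31 members on 1 array against another, for the 6 pairs of arrays, coloured by role; each title gives the correlation over members and over all genes. The chemokines (pink) extend along the diagonal for replicates 3 and 4 (r = 0.876) and along the y axis for replicates 1 and 4 (r = 0.1).

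Other genes of the pathway were counted from lists that, like the members, were chosen with earlier results of these data known. Of 21 interferon ligand genes 11 were tested, and 0 were higher and 3 lower at an unadjusted p under 0.05 (27.3%, beside 27.7% of all genes). Those 3 were Ifna13 (-0.34 ± 0.25), Ifna4 (-0.41 ± 0.31) and Ifnz (-0.31 ± 0.23), each below 0 on 3 arrays and at 0.019 to 0.025 on replicate 2. Interferon alpha genes share most of their sequence, so these signals need not be independent or specific. Ifng, the gene of interferon gamma, was at -0.15 ± 0.29, and Ifnb1 at 0.083 ± 0.10. Of 15 receptors, kinases and their inhibitors, 3 were higher and 1 lower (26.7%, again beside 27.7%). Of these, Tyk2 (0.16 ± 0.035) and the phosphatase gene Ptpn6 (0.29 ± 0.20) were above 0 on all 4 arrays. The lambda receptor gene Ifnlr1 (-0.25 ± 0.12) was below 0 on all 4. Without loess Tyk2 was at 0.052 (unadjusted p = 0.38, limma) and Ptpn6 at 0.13 (unadjusted p = 0.144, limma). With the mean over all probes Ptpn6 was at 0.13 (unadjusted p = 0.0517, adjusted p = 0.188, limma).

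Of 24 genes of nucleic acid sensing, 6 were higher and 3 lower at that level (37.5%, beside 27.7% of all genes). Irf3, the factor that starts interferon beta transcription, had 0.26, 0.29, 0.27 and 0.34, nearly the same on each array, for 0.29 ± 0.036 (adjusted p = 0.144, limma). Ddx58, which encodes the RNA sensor RIG-I, had -0.37, -0.48, -0.89 and -1.14, for -0.72 ± 0.36 (adjusted p = 0.144, limma). With the mean over all probes of the gene Ddx58 stood at -0.24 (unadjusted p = 0.0342, adjusted p = 0.166, limma). Rnaseh2a, a subunit of the nuclease that clears RNA from DNA, was at 0.26 ± 0.075. Of 47 other induced genes, 11 were higher and 6 lower (36.2%), with a median of 0.061, or -0.063 without loess. The GTPase gene Tgtp1 had 0.24, 0.84, 1.07 and 1.69, for 0.96 ± 0.60 (adjusted p = 0.144, limma), in the order of arrays of the chemokines. Averaged over all its probes, Tgtp1 stood at 0.56 (unadjusted p = 0.0045, adjusted p = 0.142, limma). The schlafen genes Slfn2 and Slfn5 were at 0.41 ± 0.12 and -0.29 ± 0.13. Of 20 other genes of antigen presentation, 5 were higher and 1 lower (30%, beside 27.7% of all genes). Cd74, the invariant chain of MHC class II, had 0.19, 0.30, 0.82 and 1.43, for 0.68 ± 0.57, and the MHC class I gene H2-K1 was at -0.34 ± 0.12, at a log2 intensity of 17.6. As for B2m, subtraction of the running median brought H2-K1 to -0.0018 (unadjusted p = 0.98, adjusted p = 0.988, limma), and with Agilent's processed signals it was at -0.14 (unadjusted p = 0.121, adjusted p = 0.332, limma). Tapbp, or tapasin, was at 0.23 ± 0.11, but at 0.053 with the mean over all probes, 0.12 without loess and 0.14 with Agilent's processed signals, each with an unadjusted p above 0.05. As reported, none of the genes on these lists had an adjusted p under 0.05. Of 14 alternatives, Ddx58, H2-K1 and Slfn2 passed in 3, which were median centring without loess, separate channels and leaving out replicate 2 (31%, 3.16% and 28.2% of all genes passed there). The other genes just named with an unadjusted p under 0.05 passed in 1 or 2 alternatives, except Cd74, which passed in 0.

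Markers of the other cells of the liver gave the following values beside the chemokines, Gbp3 and Irf8. Of 13 Kupffer cell and macrophage markers, 12 had a mean above 0, as had 14313 of all 31077 genes. At an unadjusted p under 0.05, 3 were higher and 0 lower (23.1%, beside 27.7% of all genes). Their array medians were -0.26, 0.28, 0.085 and 0.49, and their summed level was 81547 to 133208 in treated and 78520 to 107636 in untreated livers. The array median was thus lowest on replicate 1 and highest on replicate 4, as the chemokines were, while the log2 ratio of the summed level was -0.31, 0.54, 0.12 and 0.53, highest on replicate 2. The 12 T and NK cell markers tested had a median of 0.016, array medians of -0.0089 to 0.075, and summed levels of 16089 to 17808 in treated and 16876 to 20814 in untreated livers. At an unadjusted p under 0.05, 2 were higher and 2 lower (33.3%, beside 27.7% of all genes). The 2 higher ones, named here after their values were seen, had the order of arrays of Cxcl9: Nkg7, a cytotoxic granule gene, had 0.16, 0.42, 0.76 and 1.07, and Cd3d, a chain of the T cell receptor complex, had 0.15, 0.28, 0.56 and 0.73. Cd8a (-0.19 ± 0.14) and Cd3e (-0.25 ± 0.22) were the 2 lower ones, and Cd3e, at a log2 intensity of 13.6, weighs most in the summed level. The 8 dendritic cell markers had a median of 0.0080, with summed levels of 10017 to 12319 and 11690 to 13757, and the 8 B and plasma cell markers 0.083, with 5411 to 6275 and 5181 to 5577. The 8 neutrophil markers had a median of 0.067, with 4762 to 5270 and 4580 to 5293. The 10 endothelial markers were at 0.077, with array medians of 0.052, -0.23, 0.16 and 0.23 and summed levels of 50421 to 64593 and 51789 to 56461. The 10 stellate cell markers were at 0.082, with 70804 to 88658 and 68718 to 78128.6, and the 8 cholangiocyte markers at -0.045, with 15527 to 18653 and 17553 to 19628. The 10 hepatocyte markers, of a median log2 intensity of 17.1, had a median ratio of -0.22, with 1075610 to 1251000 and 1509630 to 1589190. At an unadjusted p under 0.05, 0 were higher and 3 lower (30%, beside 27.7% of all genes). All genes as bright as 17 or more had a median of -0.30. The hepatocyte median was -0.10 after subtraction of the running median, -0.11 with Agilent's processed signals and -0.48 without loess. A further T and NK cell marker and a further neutrophil marker had a probe that did not pass the filter on dim probes, and without that filter the medians were 0.050 and 0.065. Among the markers tested, 0 were well above background on fewer than 3 arrays in either channel. The part of any of these cells in the ratios of the members was not tested.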

How the data were processed

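The authors deposited spot intensity values of 4 two-colour Agilent mouse arrays, for which the file headers name Agilent Feature Extraction 10.5.1.1 as the scanner software. The headers also give a log10 ratio of Cy5 over Cy3 and processed signals, per the file headers. A deposited log2 table of these arrays correlated with Cy5 over Cy3 at r of 0.950 to 0.980, so it runs as untreated over treated. Its column medians were 0.00374, 0.00497, 0.00225 and 0.00136. How it was made is not stated in the labels, beyond limma in the submitters' processing notes.

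The labels put treated RNA in Cy3, so ratios were taken as log2 of Cy3 over Cy5. Every direction would turn if the dyes were the reverse. Median signals were corrected with normexp (offset 50) and normalised by loess within arrays, with control spots at weight 0 and outlier spots left out. Of 41174 probes, 25097 (61.0%) matched 1 symbol in RefSeq's table for GRCm38.p6. The array design names build mm9, so only RefSeq's own coordinates are printed. A gene was represented by its brightest probe, kept if well above background in 1 channel or both on at least 3 arrays. Each gene's 4 ratios were tested against 0 with limma (lmFit, eBayes), two-sided, with Benjamini-Hochberg adjustment over all 31077 genes. An exact sign-flip test of 4 arrays cannot go below p = 0.125. Levels per liver came from Aquantile normalisation between arrays.

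The members and lists were chosen with earlier results of these data known. Members given array by array were those with an unadjusted p under 0.05, the 3 highest and 3 lowest means, the 3 widest ranges and the brightest of each role, and further members were added afterwards. Of each other list, the 3 genes with the smallest p were named. Ifng and Ifnb1 were added after their values were seen. The test was tried on simulated data with known changes. Alternatives covered background correction, normalisation, filter, probe choice, variance model, separate channels, the deposited table and leaving out each array. R 4.3.3, limma 3.58.1, statmod 1.5.0 and Python 3.11.15 were used.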

Additional observations from a re-analysis of the deposited data

Results flagged for a closer look

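Each member's 4 ratios, and its 4 levels in each group, were searched for a value far from the rest by Dixon's rule (93 sets of 4). Of the 93, 2 stood out, fewer than the 1 in 20 that chance gives. The ratio of Rsad2 on replicate 3, -0.24, lay apart from 0.21 to 0.30 on the other arrays. The level of Oasl1 in the untreated liver of replicate 3, 11.6, lay below those of the other untreated livers, the highest of which was 11.96.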

How the results depend on the processing

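The count of genes with an adjusted p under 0.05 was 0 as reported, 9638 with median centring in place of loess and 982 with separate channels and the array as a random block; with an array left out it ran from 0 to 8754, the latter without replicate 2. The count at an unadjusted p under 0.05, 8609, became 14646 with median centring and ran from 3114 (without replicate 3) to 13565 (without replicate 2), with 3906 and 4111 without replicates 1 and 4. Of the members, 10 had an unadjusted p under 0.05, and 6 to 12 with an array left out (7, 11, 6 and 12 without replicates 1 to 4). Among members, those with an adjusted p under 0.05 were Gbp2, Gbp3 and Ifit2 without replicate 2, and B2m, Eif2ak2, Gbp2, Ifit2 and Oasl1 with median centring. The median of the members was -0.026 with median centring, and 0.062 to 0.12 with an array left out. B2m reversed to 0.0018 when each array's running median along intensity was subtracted; the other 9 members at an unadjusted p under 0.05 kept their direction in all 13 settings. The cause of these shifts was not tested. The pairing of livers lies within each array's ratio, so separate channels with arrays as random block (replicate block) are its other form, with 10 members at an unadjusted p under 0.05 and 982 genes at an adjusted one. Precision is limited by 4 arrays. Of the 31 members, 10 had a mean within 0.1 of 0, near the repeat-spot SD of a single array.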

Other observations

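Some further genes of the lists, chosen after their values were seen, were lowest on replicate 1 and high on replicates 3 and 4. H2-Aa, an MHC class II chain, had -0.088, 0.24, 1.05 and 1.19, for a mean of 0.60 ± 0.62 (SD, n = 4). H2-DMb1, which helps load MHC class II, had -0.018, 0.34, 1.05 and 1.29, for 0.67 ± 0.61. Igtp, an immunity-related GTPase, had 0.021, 0.39, 0.85 and 0.74, for 0.50 ± 0.37. Psmb10, the third inducible proteasome subunit, had -0.00034, 0.26, 0.37 and 0.46, for 0.27 ± 0.20, and Ifngr1, a chain of the interferon gamma receptor, had 0.049, 0.13, 0.36 and 0.83, for 0.34 ± 0.35. None of these passed over all genes (adjusted p of 0.145 to 0.173, limma). Their unadjusted p (limma) was above 0.05 in some settings: Igtp 0.113 and Ifngr1 0.196 with Agilent's processed signals, Psmb10 0.173 without loess. Without replicate 3 it was 0.143 for H2-Aa and 0.0953 for H2-DMb1. Other listed genes ran the other way, such as H2-D1 (0.0058, 0.074, -0.25 and -0.47) and Trim30a (0.090, 0.12, -0.34 and -0.21). How many listed genes, or of all genes, had either order was not counted.

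Socs3, an inhibitor of cytokine signalling, had no common direction: its ratios were 0.19, 1.42, -0.72 and -0.83, for a mean of 0.014 ± 1.04. The macrophage receptor gene Marco had -0.71, 2.19, 0.053 and 0.41, with the high value on replicate 2.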
